A study of Mus musculus with 6 samples.

Results

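The 2 input libraries of a chromatin study of mouse T cells are described here, 1 from CD4+ and 1 from CD8+ cells, of 6 libraries in all. An input is nuclease-cut chromatin that was sequenced without an antibody, so its reads show where the nuclease left nucleosomes to be recovered. The libraries were chosen by their label as inputs, and reads on chromosomes 1 to 19 were used, at 1 read per start position. Windows of 2 kb with 40 or more such reads in both inputs were left out.

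The cells were mature CD4+ and mature CD8+ T cells taken from the thymus of C57BL/6 mice, with no other treatment named in the labels. Their nuclei were cut to mononucleosomes with micrococcal nuclease (MNase). The other 4 libraries of the study were precipitations of the same chromatin with antibodies to H3K4me3 or H3K36me3, 1 library per mark and cell type. How many mice gave the cells, and whether they were pooled, is not given in the sources used here. The labelled cell types could not be checked against their marker genes, because no gene annotation of the build of the files (mm9) was used.

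MNase cuts the linker DNA between nucleosomes and then trims the ends, so each recovered fragment is about the DNA wrapped around 1 histone core plus what trimming left. The nucleosome repeat length is the mean distance from 1 nucleosome to the next, core and linker together. H3K4me3 marks active promoters, where the nucleosome just upstream of transcription is often missing or easily lost, and H3K36me3 marks the bodies of transcribed genes. An input therefore carries its own map of promoters, and that map moves with how far the digestion went as well as with the cells.

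The inputs were alike in depth. The CD4 input held 9913123 reads on chromosomes 1 to 19 and the CD8 input 9716101. Distinct starts made up 97.2% of them in CD4 and 97.6% in CD8, which left 9619847 and 9463923 starts in kept windows. That is a mean of 0.804 CD4 and 0.791 CD8 starts per 200 bp bin, and 402 and 395 per 100 kb. The 125 windows left out lay on 14 chromosomes, 39 of them on chromosome 11 and 35 on chromosome 1, and held 0.160% of the CD4 and 0.153% of the CD8 starts. The most reads at a single start position were 15861 in CD4 and 10490 in CD8. With 1 library per cell type no value has a replicate, so no p-value is given. Digestion, cell preparation, library making, sequencing and cell type cannot be told apart. Except for fitted repeat lengths, printed intervals are exact 95% intervals; they hold the error of counting and nothing else, so they set 1 library against another and not 1 cell type against another. The reads had no molecular identifiers, so they may not all be independent molecules.

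The first question was how much input chromatin was recovered where H3K4me3 lay. A 200 bp bin was enriched when it held at least 1.2 RPM (reads scaled to library size) in the H3K4me3 library, which is 13 reads in CD4 and 15 in CD8, and enriched bins were joined over gaps of up to 400 bp into runs. Input reads entered that choice only through the windows left out, whose bins were dropped. There were 16845 runs in CD4 and 15420 in CD8, both with a median width of 1000 bp, and 14435 runs of bins enriched in both. Density is given as input starts per bin over the genome mean of the same library, so 1 is the genome mean.

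Taken over all runs, both inputs were depleted at H3K4me3 runs, and the CD8 input more deeply. In the shared runs, 200 bp to either side of the bin with the highest H3K4me3, the CD4 input stood at 0.687 of the genome mean (0.676 to 0.697, from 15934 starts) and the CD8 input at 0.512 (0.503 to 0.522, from 11699 starts). The CD4 density there was 1.34 times the CD8 density (1.31 to 1.37). These are the same bins in both libraries, so the gap does not come from comparing different runs.

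**Figure D1:**
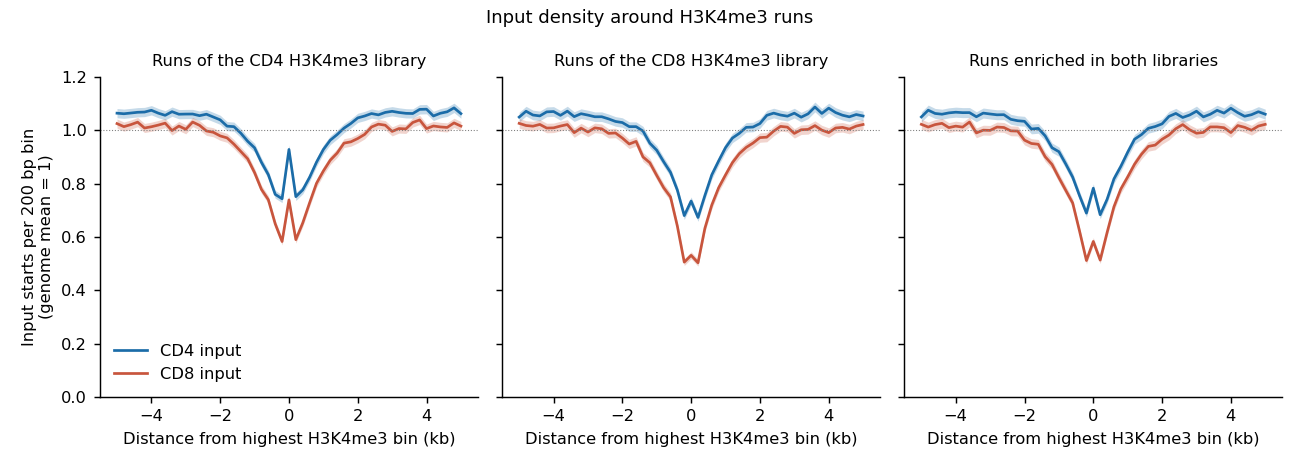
Input density in 200 bp bins (y axis, genome mean of each library = 1) by distance in kb from the bin with the highest H3K4me3 (x axis), for the runs of each H3K4me3 library and for shared runs. Lines are the CD4 and CD8 inputs and bands their exact 95% counting intervals. In all 3 panels the CD8 line lies below the CD4 line, and at shared runs it falls to 0.512 beside the highest bin against 0.687 for CD4.

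The gap narrowed with distance. At 400 bp the densities were 0.748 in CD4 and 0.619 in CD8, a ratio of 1.21 (1.18 to 1.24). At 1 kb they were 0.919 and 0.824, a ratio of 1.12 (1.09 to 1.14). At 2 kb the CD4 input stood at 1.03 (1.02 to 1.04) and the CD8 input at 0.965 (0.952 to 0.978). Between 8 and 10 kb away they stood at 1.06 and 1.01, a ratio of 1.05 (1.046 to 1.057), so both were still below their flanks at 2 kb. The flanks of these runs thus held slightly more CD4 than CD8 input, and most of the 1.34-fold gap beside the highest bin lay on top of that level. Where runs lay close together, the same bin was counted for each run within reach, and flanks could hold bins of other runs. The intervals from 400 bp outward can therefore be too narrow.

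Beside the highest bin, depletion was deeper in wider runs, in both libraries. At 200 bp from the highest bin, single-bin runs (2205 shared runs) had densities of 0.787 in CD4 and 0.661 in CD8, a ratio of 1.19 (1.13 to 1.26). Runs of 800 to 1400 bp (6312) had 0.648 and 0.455, a ratio of 1.43 (1.37 to 1.48). Runs of 1600 bp or more (2426) had 0.587 and 0.422, a ratio of 1.39 (1.30 to 1.48). The widest runs also kept their low density furthest out, with 0.760 in CD4 and 0.635 in CD8 at 1 kb. A bin 200 bp from the highest lies outside a single-bin run and can lie inside a wide one. In the highest bin itself the widest runs were not the lowest. There the CD4 input stood at 0.700 in runs of 800 to 1400 bp and 0.753 in the widest, and the CD8 input at 0.519 and 0.560.

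The bin with the highest H3K4me3 itself broke this valley. In the runs of its own cell type the CD4 input stood at 0.929 (0.912 to 0.945) in that bin against 0.743 and 0.751 in the bins on either side. The CD8 input showed the same peak at the CD4 runs, at 0.739 against 0.583 and 0.590. At CD8 runs the peak was smaller, 0.531 (0.518 to 0.544) against 0.505 and 0.503 for the CD8 input and 0.735 against 0.680 and 0.673 for the CD4 input. The height of the peak thus followed which H3K4me3 library placed the bin, and it was present in both inputs each time. In the 2775 single-bin CD4 runs the highest bin was not depleted. It stood at 1.17 (1.12 to 1.21) in the CD4 input and 0.987 (0.946 to 1.03) in the CD8 input. In CD4 runs of 400 to 600 bp the CD4 input stood at 0.986 (0.951 to 1.02) there, and the CD8 input at 0.803. Bins with no start at all made up 50.7% of the highest bins of CD4 runs in the CD4 input and 57.8% of the bins next to them. For the CD8 input at CD8 runs these shares were 67.9% and 70.0%. Counts drawn evenly at the genome mean would leave 44.8% of CD4 bins and 45.3% of CD8 bins empty. All kept bins were less even than that, with a variance of 1.24 (CD4) and 1.28 (CD8) times the mean. The median of CD8 bins was 0 starts, so 45.3% is below the real share of empty CD8 bins. That real share is not given here. A few bins with many starts took part of the CD4 peak: 31 highest bins with 6 or more starts held 2.91% of the starts of the highest bins of CD4 runs, and without bins of 6 or more starts in either input the CD4 value was 0.910. With no window left out it was 1.08, above the genome mean. Where reads of repeated sequence were placed is not given in the sources used here, and its part in the peak was not tested.

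More H3K4me3 went with less input, up to the top level. Enriched bins were put into 4 groups of like size by their H3K4me3 reads. The CD8 input fell from 0.590 in the lowest group (15 to 34 H3K4me3 reads) to 0.499 and 0.421 in the middle groups, and stood at 0.461 (0.450 to 0.472) in the highest (204 to 7612 reads). The CD4 input went from 0.792 (13 to 24 reads) through 0.750 and 0.718 to 0.837 (0.823 to 0.850) in the highest group (118 to 6602 reads). In both libraries the lowest density was therefore in the second highest group, and in CD4 the highest group exceeded the lowest. Over all enriched bins the density was 0.774 in CD4 (53090 starts in 85366 bins) and 0.492 in CD8 (29033 starts in 74545 bins). Exchanging the inputs moved these values toward each other but did not exchange them: the CD8 input stood at 0.617 in the CD4 bins and the CD4 input at 0.670 in the CD8 bins. The CD8 input was the lower one in either set of bins.

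The runs were then turned by H3K36me3, which stands in for the direction of transcription because no gene annotation of mm9 was used. A run was turned when the 10 kb on 1 side held at least 20 H3K36me3 reads and at least 3 times those of the other side, which placed 5580 CD4 and 5642 CD8 runs. In the CD8 input the lowest bin was the one 200 bp from the highest H3K4me3 bin on the side away from H3K36me3, at 0.424 (0.405 to 0.444). The matching bin on the H3K36me3 side stood at 0.531 (0.510 to 0.553). The CD4 input had the same order with a smaller gap, 0.674 (0.650 to 0.699) away from H3K36me3 and 0.727 (0.703 to 0.753) toward it.

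**Figure D2:**
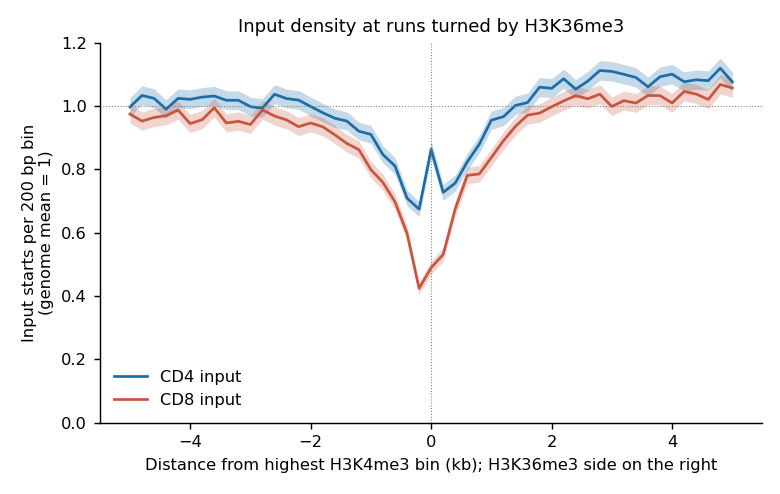
Input density in 200 bp bins (y axis, genome mean = 1) by distance in kb from the bin with the highest H3K4me3 (x axis), with the H3K36me3 side on the right. Each line is the input of a cell type at the turned runs of that cell type, with its exact 95% counting interval as a band. The CD8 line reaches its lowest value, 0.424, just left of the centre, and both lines run higher on the right than on the left.

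Over 200 to 600 bp from the highest bin, the side away from H3K36me3 had 0.951 of the density of the H3K36me3 side in CD4 (0.925 to 0.977) and 0.865 in CD8 (0.839 to 0.892). Further out the libraries differed little in this ratio. It was 0.946 in CD4 and 0.951 in CD8 at 1 to 2 kb, and 0.933 and 0.934 at 3 to 5 kb. The stronger asymmetry of the CD8 input was therefore found within 600 bp. With the runs exchanged, the CD8 input at CD4 runs gave 0.898 (0.871 to 0.926) and the CD4 input at CD8 runs 0.932 (0.907 to 0.958), so CD8 had the lower ratio in both sets of runs. The intervals of the inputs overlapped at the CD4 runs and did not at the CD8 runs. The H3K36me3 side was chosen by reads not corrected for input or mappability. The part of that choice in these ratios was not tested.

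Windows with many H3K36me3 reads stood above the genome mean in both inputs. Windows of 10 kb with at least 8 H3K36me3 RPM, away from H3K4me3 runs, stood at 1.14 in CD4 (10.02% of kept 2 kb windows) and 1.12 in CD8 (9.73%). Windows of 2 kb within 2 kb of an H3K4me3 run stood at 0.980 in CD4 and 0.885 in CD8. The rest, with neither mark, stood at 0.984 and 0.992. The H3K36me3 windows were chosen by reads not corrected for input or mappability. Windows where few reads can be placed therefore fall into the rest and lower the genome mean. The part of that choice in these densities was not tested.

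The second question was how nucleosomes were spaced. Distances between pairs of distinct starts within a library were counted and set to 1 at 1200 to 1500 bp. Because the reads are 33 bp long and carry no strand, starts from the left and the right end of a fragment are mixed. The distances were therefore fitted by peaks at multiples of the repeat length and at those multiples plus or minus the distance between the 2 end starts of a fragment.

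Both inputs had a repeat near 190 bp. The fit gave 189.2 bp in CD4 (187.8 to 190.7) and 192.8 bp in CD8 (191.3 to 194.3). The running mean of the counts was searched for its highest point at 360 to 410, 550 to 610 and 740 to 810 bp. Within these ranges the maxima were at 380, 579 and 773 bp in CD4 and at 376, 578 and 775 bp in CD8. These maxima differ by at most 4 bp between the libraries. That they lie near 2, 3 and 4 repeats follows from the ranges searched. They were shallow: the CD4 maximum at 380 bp reached 1.036 against 1.030 in the dip before it. The end-to-end distance plus the read width, an estimate of fragment length, was 138 bp in CD4 and 142 bp in CD8.

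The 3.6 bp difference in fitted repeat was not stable over the genome. On odd chromosomes the repeat was 190.7 bp in CD4 (189.0 to 192.3) and 191.7 bp in CD8 (189.7 to 193.7), with intervals that overlap. On even chromosomes it was 187.4 bp (184.8 to 189.9) and 193.9 bp (191.9 to 195.9). Single chromosomes that could be fitted gave medians of 187.5 bp in CD4 (17 chromosomes, 159 to 193 bp) and 192.4 bp in CD8 (18 chromosomes, 182 to 197 bp). CD8 had the longer fitted repeat on 13 of the 16 chromosomes that could be fitted in both.

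The same comb of distances was present between the libraries. Distances from CD4 to CD8 starts gave a repeat of 191.2 bp (190.3 to 192.2). In the same search ranges their maxima were at 381, 576 and 778 bp, next to those within each library. The fragment estimate from these pairs was 140 bp. Base preference of the nuclease and mappability, which both libraries share, were not analysed, so this comb was not traced to nucleosome positions alone.

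**Figure D3:**
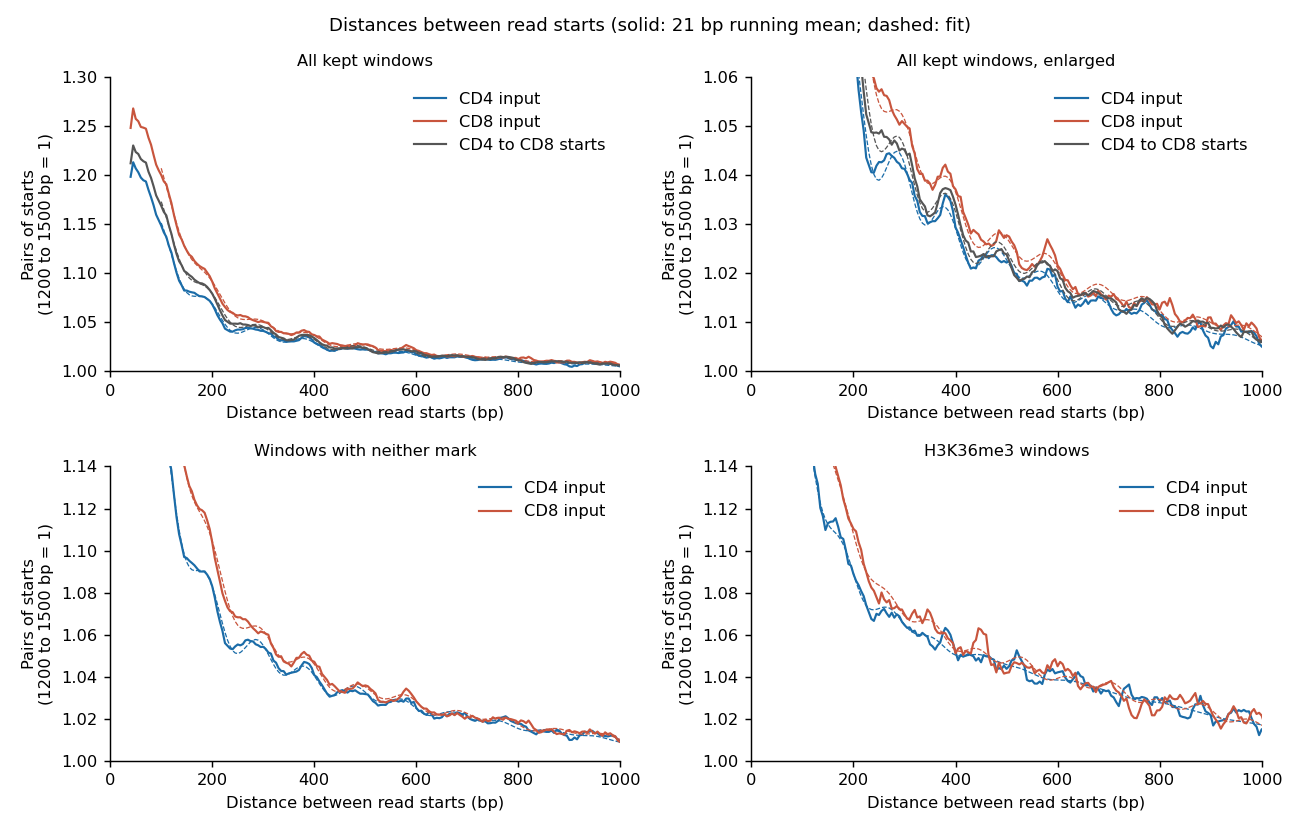
Pairs of read starts (y axis, 1200 to 1500 bp = 1) by distance in bp (x axis), as a 21 bp running mean (solid) with the fit (dashed), for all kept windows at 2 scales, for windows with neither mark and for H3K36me3 windows. In all kept windows the CD4, CD8 and CD4-to-CD8 curves have maxima near 380 and 578 bp, while the curves of H3K36me3 windows are noisier and their maxima do not line up.

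In windows with neither mark, which hold 8091244 of the CD4 and 8092495 of the CD8 starts, the repeat was 189.8 bp in CD4 (188.4 to 191.1) and 192.9 bp in CD8 (191.6 to 194.3). H3K36me3 windows gave shorter fitted repeats with less support. In CD8 the fit gave 176.7 bp (174.5 to 179.0), and 176.4 bp on both odd and even chromosomes. In CD4 it gave 173.8 bp (166.0 to 181.5), but 173.9 bp on odd and 194.8 bp on even chromosomes. Searched at 360 to 410 and 550 to 610 bp, the CD4 running mean was highest at 381 and 582 bp. Between 740 and 810 bp its highest point was at 740 bp, the edge of the range searched, so it shows no clear maximum there. The CD8 running mean in these windows likewise had its highest point between 360 and 410 bp at the edge, 361 bp. Searched at 550 to 610 and 740 to 810 bp, it was highest at 595 and 771 bp. The ranges searched hold no multiple of the fitted 173.8 or 176.7 bp, so these maxima cannot show whether the repeat was shorter. A shorter repeat in H3K36me3 windows thus appeared in the CD8 fit, and did not hold on even chromosomes in CD4. Near H3K4me3 runs the CD4 fit gave 175 bp over all chromosomes, 188 bp on odd and 175 bp on even ones. The CD8 distances there could be fitted within the limits set only on even chromosomes, at 185 bp (167 to 204).

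At short range the starts were not spread evenly. Starts 1 bp apart were 1.96 times (CD4) and 2.05 times (CD8) as frequent as those at 1200 to 1500 bp. Further maxima came about 10 bp apart, near 9 bp (1.35 in CD4, 1.40 in CD8), near 19 bp (1.28 and 1.33) and near 30 bp (1.27 and 1.30), with lower values between them, such as 1.24 and 1.29 at 15 bp. This spacing is close to a turn of the DNA helix and is known from nuclease cutting on the nucleosome surface. The maxima were also present between the libraries, at 1.36 for 9 bp and 1.29 for 19 bp.

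Identical start positions were shared between the inputs more often than the level of distant pairs gives. There were 172234 positions with a start in both, 1.79% of the CD4 and 1.82% of the CD8 starts, 4.15 times the number from the 1200 to 1500 bp level (41479). At 34 bp, 1 bp more than the read width, all 3 sets of pairs were at a low, with 41888 pairs in CD4, 42977 in CD8 and 83922 between the libraries. At 35 bp there were 50567, 53597 and 103095. The bases at these starts were not analysed here, since no mm9 sequence was used.

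The third question was how far the inputs differed over large regions. Over 23932 windows of 100 kb the densities of the libraries had a Pearson r of 0.926 and a Spearman rho of 0.865. Counting error alone would hold r to 0.946 if the underlying densities were the same. At 10 kb r was 0.741 against a limit of 0.751, and at 2 kb 0.462 against 0.465. At 200 bp r was 0.212, close to its limit of 0.205. Neighbouring windows share mappability and base composition, so these are descriptions over windows, which are not replicates. Most of the unevenness of the input was common to both libraries: the variance of starts per 100 kb was 19.1 times the mean in CD4 and 18.0 times in CD8, against 1 for evenly drawn counts.

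Few windows differed between the libraries by themselves. A 100 kb window counted as different when 1 input was at least 25% above the other and the exact interval of the ratio, at an error level of 0.1%, left out 1. Of 23932 windows, 62 were higher in CD4 (0.259%) and 21 higher in CD8 (0.0877%). With windows shifted by 50 kb these counts were 65 and 36, and at 1.5-fold both were 0. Among so many windows, counting error alone can carry single windows past this rule. At 10 kb and 1.5-fold, 112 of 237699 windows were higher in CD4 (0.0471%) and 108 in CD8 (0.0454%). At 2 kb and 2-fold, 207 of 1156575 were higher in CD4 (0.0179%) and 232 in CD8 (0.0201%). With a mean of 402 CD4 and 395 CD8 starts per window, much smaller folds lie within counting error in a single 100 kb window.

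The 5 windows with the largest lower bound in each direction all differed by 1.3 to 1.42-fold. Chromosome 1:135100001-135200000 held 505 CD4 and 355 CD8 starts, a CD4/CD8 ratio of 1.40 (1.22 to 1.61). Chromosome 11:52100001-52200000 held 402 and 279, a ratio of 1.42 (1.21 to 1.66), and was rich in H3K4me3, with 1810 CD4 and 3340 CD8 reads of that mark. Chromosome 4:130400001-130500000 held 438 and 317 starts, a ratio of 1.36 (1.17 to 1.58), with 3775 and 4042 H3K4me3 reads. Of the windows higher in CD8, chromosome 4:49900001-50000000 held 348 CD4 and 452 CD8 starts, a CD8/CD4 ratio of 1.32 (1.15 to 1.52), with 67 CD4 and 0 CD8 H3K4me3 reads. Chromosome 5:88500001-88600000 held 276 and 364, a ratio of 1.34 (1.14 to 1.57), with 67 and 2 H3K4me3 reads. The 5 windows higher in CD4 each held 401 or more CD4 H3K4me3 reads, and the 5 higher in CD8 at most 83.

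The same order appeared over all windows as a small, broad shift. When 100 kb windows were sorted by their H3K4me3 level, taken from both cell types together, the CD4/CD8 input ratio was 0.967 (0.965 to 0.970) in the lowest of 5 groups of like size and 1.04 (1.039 to 1.043) in the highest, with 0.965, 0.991 and 1.03 between. Leaving out the 2 kb windows within 2 kb of an H3K4me3 run gave 0.967 and 1.03 at the ends, so most of the shift was found outside the runs. By H3K36me3 level the ratio went from 0.976 to 1.03. In absolute level the inputs stood at 0.721 (CD4) and 0.745 (CD8) in the windows lowest in H3K4me3, and both were highest in the middle group, at 1.13 and 1.14. Base composition was not analysed, so its part in the shift of the ratio was not tested.

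**Figure D4:**
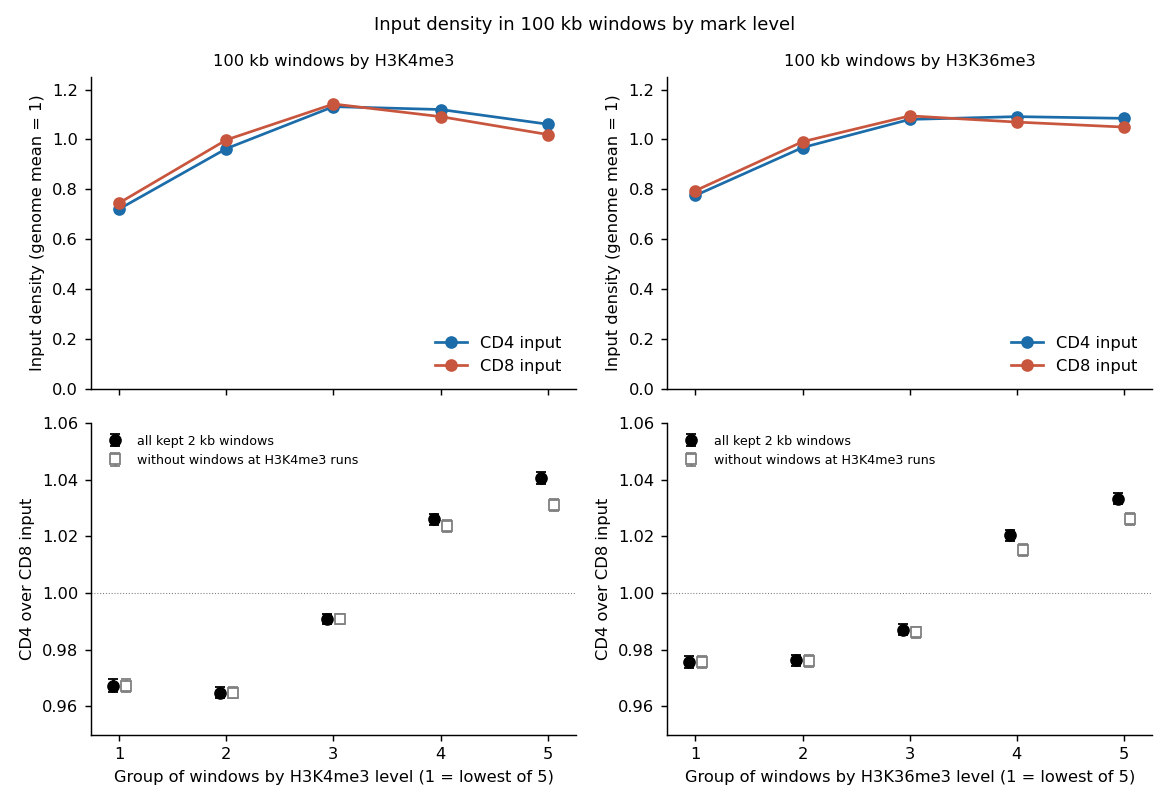
Top: density of each input (genome mean = 1) in 100 kb windows sorted into 5 groups by H3K4me3 or H3K36me3 level (x axis, 1 = lowest). Bottom: CD4 over CD8 input in the same groups with exact 95% counting intervals, over all kept 2 kb windows and without those at H3K4me3 runs; this axis starts at 0.95. By H3K4me3 the ratio runs from 0.967 in the lowest group to 1.04 in the highest, and to 1.03 without the windows at runs.

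The CD4 input had a Spearman rho of 0.541 with CD4 H3K4me3 over 100 kb windows, and the CD8 input 0.280 with CD8 H3K4me3. For H3K36me3 the values were 0.493 and 0.292. These coefficients are descriptions over windows, and the background of the H3K4me3 libraries differs between the cell types, as the 67 CD4 against 0 or 2 CD8 reads in the windows above show. The log2 CD4/CD8 ratio of windows with 100 or more starts (23534) had an SD of 0.12, of which counting gives 0.10, leaving 0.063 beyond it. Ratios of adjacent windows had a Pearson r of 0.223, those 1 Mb apart 0.125 and those 5 Mb apart 0.0293, so the shift extended over more than 1 window.

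Whole chromosomes differed by less than 2%. The CD4/CD8 ratio ran from 0.986 on chromosome 16 (0.982 to 0.991) to 1.017 on chromosome 11 (1.013 to 1.021). The interval lay above 1 on 7 of 19 chromosomes and below 1 on 5. Chromosome 11 had 737 H3K4me3 RPM per Mb and chromosome 16 had 346. Over the 19 chromosomes the ratio and the H3K4me3 level had r = 0.860 and rho = 0.860 as a description, since all chromosomes share the same libraries.

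The fourth question was whether the CD4/CD8 input ratio moved where H3K4me3 itself differed. In 9071 windows of 2 kb with alike H3K4me3 in both cell types (under 1.5-fold), the ratio was 1.17 (1.15 to 1.18), at densities of 0.870 in CD4 and 0.746 in CD8. In 455 windows with at least 4-fold more H3K4me3 in CD8, it was 1.24 (1.17 to 1.31), at 0.824 and 0.667. In 3430 windows with at least 4-fold more in CD4 it was 1.03 (1.01 to 1.04), at 1.05 and 1.03, and with at least 8-fold more it turned to 0.995 (0.973 to 1.02). The windows with more H3K4me3 in CD4 were thus near the genome mean in both inputs, while the other sets were depleted. The background of the H3K4me3 libraries differs between the cell types, and its part in these windows was not tested. Among windows with at least 100 H3K4me3 reads, chosen after the first values were seen, the ratios were 1.17 (6310 windows), 1.29 (222) and 1.02 (824), and the last interval (0.986 to 1.06) holds 1.

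Some regions were low in both inputs. By rule, the 10 windows of 100 kb lowest against their neighbours were listed, among windows in which at least 50% of the 2 kb windows held a read in both inputs. The lowest was chromosome 17:8200001-8300000, at 0.172 of the genome mean in CD4 (69 starts) and 0.157 in CD8 (62 starts), a ratio of 1.09 (0.766 to 1.57). Chromosome 13:33400001-33500000 stood at 0.216 and 0.172, and chromosome 19:9400001-9500000 at 0.174 and 0.195. All 10 ratios had intervals that hold 1.

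Longer low stretches were common to the libraries too. There were 58 stretches of 4 or more adjacent windows between 2% and 60% of the genome mean, a rule chosen after the values were seen, with 392 windows on 15 chromosomes. Without the lower limit, which splits stretches at nearly empty windows, there were 57 with 459 windows. The CD4/CD8 ratio ran from 0.865 to 1.18 with a median of 0.999, and its interval lay above 1 in 1 stretch and below 1 in 3. A pair of them, on chromosomes 14 and 6, were picked after their values were seen. Other low stretches lay on both chromosomes. Chromosome 14:3900001-5200000 stood at 0.0687 in CD4 and 0.0621 in CD8, and chromosome 6:68900001-69600000 at 0.492 and 0.475. Mature T cells carry rearranged T cell receptor genes, and rearrangement removes the DNA between joined segments; in the mouse the alpha and delta genes are on chromosome 14 and the beta genes on chromosome 6. The stretch at chromosome 14:53900001-54800000 stood at 0.311 in CD4 (1124 starts) and 0.312 in CD8 (1109), a ratio of 0.997 (0.917 to 1.08), and the next 100 kb at 1.05 and 0.900. Before it lay 6 more low windows, a pair of them nearly empty. Without the lower limit the stretch ran from 53300001 over 15 windows, at 0.248 (1495 starts) and 0.244 (1449), a ratio of 1.02 (0.944 to 1.09). The stretch at chromosome 6:41100001-41500000 stood at 0.277 (446 starts) and 0.284 (449), a ratio of 0.977 (0.855 to 1.12), and the next 100 kb at 1.27 and 1.17. Both ended in a step at the same window in both cell types. Whether these stretches overlap the receptor genes in mm9 was not analysed here, and lost DNA and poor mappability cannot be told apart from these counts.

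**Figure D5:**
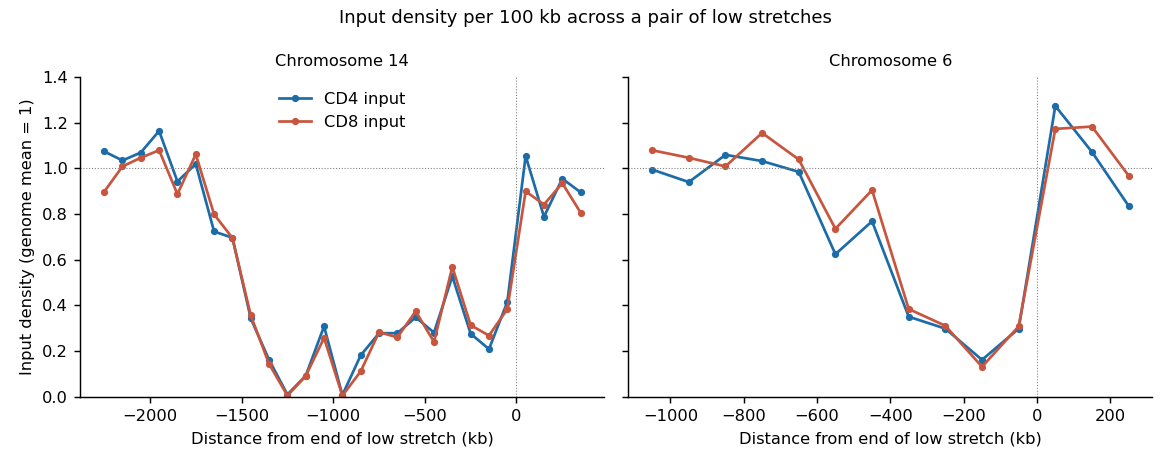
Input density per 100 kb window (y axis, genome mean = 1) by distance in kb from the end of a low stretch (x axis) on chromosomes 14 and 6, for the CD4 and CD8 inputs. Both inputs begin near the genome mean at the left and are low in the windows just before the dotted line. They step up in the next window, from 0.415 and 0.384 to 1.05 and 0.900 on chromosome 14.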

How the data were processed

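The authors deposited aligned read positions (unit: other), a start and an end for each read, without strand or score. Positions are on mm9, per the submitters' processing notes. Which aligner was used, how it placed reads with more than 1 match and whether repeated reads had been removed is not given in the sources used here. The members, rules and lists were chosen with earlier results of these data known.

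Starts on chromosomes 1 to 19 were counted once per position. Mark bins used all reads of the H3K4me3 or H3K36me3 library of the same cell type. Intervals are exact Poisson intervals for densities and exact conditional (Clopper-Pearson) ones for ratios. Distances from 100 to 1200 bp were fitted by least squares. The form of this fit and its limits were set while looking at the data. So were the odd and even split and the leaving out of 100 kb windows with no start in either input. The limits were a standard error of the repeat of at most 10 bp, with the repeat and the end-to-end distance inside their bounds. Other terms of the fit were not checked. In the accepted CD4 fit of chromosome 6 (162 bp), the decay of the peaks over repeats was at its upper bound. The interval of a fitted repeat is from the fit and holds no variation between libraries. Unevenness is given as variance over mean in place of the planned coefficient of variation. By rule, the windows named were those 5 in each direction whose 95% interval of the fold began highest, with neighbours counted once, and the 10 lowest against the 10 windows on each side. Gene names, marker genes and receptor genes were to be used only with an annotation of mm9 and were not analysed here, nor were base composition and mappability. The scripts were tested on simulated data. Alternatives covered repeated reads, left-out windows, mark cutoffs, fit range, smoothing, thinning, window shift and centring. The tools were SciPy 1.17.1, NumPy 2.4.6, matplotlib 3.10.9 and pandas 2.3.3 under Python 3.11.15.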

Additional observations from a re-analysis of the deposited data

How the results depend on the processing

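No paired analysis was possible because each group holds 1 library. Of 113 alternative values of 23 results, 85 kept their size and direction, 27 moved and 1 reversed, and the cause was not tested except where the setting itself gives it.

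The CD8 input was below the CD4 input at H3K4me3 bins and runs under each alternative run. The densities 200 bp from the highest bin of shared runs were 0.668 (CD4) and 0.490 (CD8) with H3K4me3 bins at 2.4 RPM, 0.718 and 0.545 with bins set by distinct H3K4me3 starts, and 0.713 and 0.537 with no window left out. At the highest bin of own runs, CD4 and CD8 gave 0.898 and 0.506 at 2.4 RPM, 0.981 and 0.579 with distinct starts, and 1.08 and 0.563 with no window left out. CD4 alone moved to 0.900 with bins at 4 times the input and 0.910 without bins of 6 or more starts, the latter added after seeing the data. All enriched bins gave 0.796 and 0.538 with distinct starts and 0.850 and 0.505 with no window left out. The highest H3K4me3 group gave 0.820 and 0.448 with distinct starts, and 0.944 in CD4 with no window left out. The CD4 side ratio was 0.920 with sides at 5 times and 0.909 with no window left out.

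At 1.5-fold, 0 windows of 100 kb were higher in CD4 and 0 in CD8. With windows shifted by 50 kb, 36 were higher in CD8. Pearson r was 0.947 with no window left out. With H3K4me3 at 8-fold, the CD4/CD8 input ratio of windows with more H3K4me3 in CD4 was 0.995 (0.973 to 1.02). The CD8 repeat in H3K36me3 windows could not be fitted at 12 RPM. Depth allows about 1 start per 200 bp bin, so single runs were not compared.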
